A study of Homo sapiens with 6 samples.

Results

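The genes FGA, FGB and FGG encode the α, β and γ chains of fibrinogen, and the RNA polymerase II (RNA pol II) regions assigned to them in HepG2 hepatoma cells are described here. The members were the regions to which the authors' annotation gave 1 of these 3 symbols as the nearest gene. Across 4 region lists, 44 of 271336 regions were members. They were 10 of 46045 regions of RPB1 in SHP-1 WT cells, 17 of 41605 regions of RPB1 in SHP-1 KO cells, 12 of 102674 regions of phospho-Ser2 RPB1 (pSer2) in SHP-1 WT cells and 5 of 81012 regions of pSer2 in SHP-1 KO cells. The 3 genes are among 16428 gene symbols that the lists name.

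HepG2 is an established human liver tumor line. The study asked how loss of SHP-1, a protein tyrosine phosphatase encoded by PTPN6, changes where RNA pol II sits on the genome. SHP-1 KO cells carry a CRISPR knockout of PTPN6, made with guides to exons of the phosphatase domain and grown out from single cells. SHP-1 WT cells are the control without that knockout. The ChIP-seq methods of the paper do not say whether these were untransfected or had received the nontargeting guide. SHP-1 KO and SHP-1 WT cells are called KO and WT cells below. Which clone was sequenced is not given in the sources used here, so clone and genotype cannot be told apart. No drug or hormone treatment is given for either cell type. Chromatin was immunoprecipitated from each with an antibody to RPB1 (ab817) and with one to RPB1 phosphorylated on serine 2 of its tail repeats (ab5095). There was 1 library for each antibody and cell type, so the values below have no replicate check and no test was run between WT and KO. The lists give no read counts, and the depth of each library is unknown.

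Fibrinogen is a plasma protein made of paired α, β and γ chains. Thrombin cuts short peptides from the α and β chains, and the resulting fibrin polymerizes into the mesh of a clot. Hepatocytes are the main source, the 3 genes lie next to each other, and their transcription rises in the acute-phase response, in which interleukin 6 acts through STAT3 and C/EBP factors. RPB1 is the largest subunit of RNA pol II. The enzyme starts at promoters with an unphosphorylated tail, and phosphorylation of serine 2 accompanies elongation and is commonly highest towards the 3′ ends of genes. Occupancy of either form is a measure of polymerase on DNA and not of mRNA level.

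The labelled cell type was checked against markers of hepatocytes. Of 6 hepatocyte markers, all 6 had an RPB1 region in WT cells and 5 had one at the promoter. Of 8 markers of other cell types, 2 had an RPB1 region in WT cells and 1 had one at the promoter. In KO cells, 5 of the 6 hepatocyte markers and 0 of the 8 others had a promoter region. RNA pol II regions do not measure SHP-1, so the knockout itself was not checked here.

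The genes occupy 50.0 kb of chromosome 4 on hg38 (GENCODE 44). FGB lies at chr4:154563011-154572807 on the plus strand, with 8 exons in 9797 bp. FGA lies at chr4:154583126-154590742 on the minus strand and spans 7617 bp, and its main transcript has 5 exons. FGG lies at chr4:154604134-154612967, also on the minus strand, and spans 8834 bp, with 9 exons in its main transcript. FGB and FGA are therefore transcribed towards each other, and their 3′ ends face a gap of 10318 bp, while 13391 bp separate the 5′ end of FGA from the 3′ end of FGG.

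The promoters are shown because RPB1 regions lay over all 3 of them in both cell types. They were taken from RefSeq (GRCh38.p14), in which all 3 genes were matched, and run 5′ to 3′ from 200 bases before to 20 bases after the start. FGB is from chr4:154562811-154563030 on the plus strand, FGA from chr4:154590723-154590942 on the minus strand and FGG from chr4:154612637-154612856 on the minus strand. Capitals mark matches on either strand to CTGGGA, a core letter string of acute-phase elements, to GTTAAT, a string found in liver promoters, and to TTGCNNAA, a C/EBP-type string.
FGB: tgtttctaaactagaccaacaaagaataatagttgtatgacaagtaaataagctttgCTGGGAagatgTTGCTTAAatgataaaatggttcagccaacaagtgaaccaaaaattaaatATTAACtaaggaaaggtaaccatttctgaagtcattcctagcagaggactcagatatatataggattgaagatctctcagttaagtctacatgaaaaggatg
FGA: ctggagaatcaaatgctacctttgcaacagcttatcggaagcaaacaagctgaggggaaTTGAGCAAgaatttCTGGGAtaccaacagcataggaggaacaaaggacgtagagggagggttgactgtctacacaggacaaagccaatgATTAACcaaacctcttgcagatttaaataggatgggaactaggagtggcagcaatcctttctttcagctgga
FGG: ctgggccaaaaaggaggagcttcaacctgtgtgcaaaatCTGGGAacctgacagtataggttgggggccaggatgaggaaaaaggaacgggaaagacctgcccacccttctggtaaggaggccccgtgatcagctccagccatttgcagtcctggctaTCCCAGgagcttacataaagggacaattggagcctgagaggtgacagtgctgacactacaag

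CTGGGA occurred in 3 of 3 fibrinogen promoters, and 33.3% of 34796 RefSeq promoters of 300 bases held it on either strand. It lay at −143 to −138 in FGB, at −127 to −122 in FGA, and in FGG at −161 to −156 and, on the opposite strand, at −42 to −37. GTTAAT was present on the opposite strand of FGB at −82 to −77 and of FGA at −52 to −47, against 6.91% of all promoters. TTGCNNAA lay in FGB at −132 to −125 and on the opposite strand of FGA at −141 to −134, against 10.5% of all promoters. TATAAA was found in 0 of 3 fibrinogen promoters and in 11.6% of all. These are matches of letters in a fixed window, and no factor binding was measured.

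FGG, the γ chain gene, had the highest fold enrichments of the 3 genes in every list. Fold enrichment, as MACS2 gives it, sets the signal at a region's summit against input DNA of the same cells. The strongest FGG region reached 32.4-fold for RPB1 in WT cells, 19.8-fold for RPB1 in KO cells, 23.9-fold for pSer2 in WT cells and 16.6-fold for pSer2 in KO cells. FGA, the α chain gene, came second in every list. Its values in the same order were 25.3-fold, 13-fold, 20.9-fold and 13.6-fold. FGB, the β chain gene, was the lowest throughout, with 7.25-fold, 5.22-fold, 8.38-fold and 4.27-fold. With 1 library each, whether neighbours in this order differ beyond their spread could not be assessed.

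Ranked among all regions of a list by fold enrichment, the pSer2 regions of FGA and FGG stood near the top, and their RPB1 regions stood lower. The strongest pSer2 region of FGG was number 96 of 102674 in WT cells and number 361 of 81012 in KO cells. That of FGA was number 173 in WT cells and number 681 in KO cells. For RPB1, FGG held rank 4894 of 46045 in WT cells and 6065 of 41605 in KO cells, and FGA held 6817 and 9194. The strongest region of FGB held ranks 16483 and 23878 for RPB1 and 3466 and 27243 for pSer2. The same contrast was present when each gene was represented by its strongest region. In WT cells FGG was at or above 99.3% of 12740 genes for pSer2 and 66.5% of 14164 genes for RPB1, and FGA at or above 98.7% and 54.4%. FGB was at or above 78.9% of genes for pSer2 and 18.3% for RPB1. In KO cells, the pSer2 value of FGB was at or above 25.3% of 11433 genes, while FGA and FGG were at or above 94.5% and 97.1%. The median strongest fold enrichment of a gene was 23.0 for RPB1 and 5.58 for pSer2 in WT cells, and 17.3 and 5.46 in KO cells, so the scales of the antibodies differ and only ranks are set side by side.

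The length covered by regions separated FGA and FGG from FGB, least clearly for pSer2 in WT cells. RPB1 regions in WT cells covered 100% of FGA, 99.1% of FGG and 19.9% of FGB. For pSer2 in WT cells these values were 100%, 98.3% and 87.1%. Among 19962 protein-coding genes, 386 (1.93%) were covered over at least 90% of their length by RPB1 regions in WT cells and 342 (1.71%) by pSer2 regions, and the median covered share of genes with any region was 4.05% and 9.57%. In WT cells FGA and FGG belonged to those few genes for both antibodies, and FGB to neither. For pSer2, though, FGB ranked 421 of 19962 genes by covered share in WT cells. In KO cells RPB1 regions covered 89.3% of FGA and 88.6% of FGG, just under the 90% limit. The regions themselves were long. The FGG pSer2 region of WT cells ran over 11636 bp and that of FGA over 9823 bp, against a median of 350 bp in that list.

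**Figure D1:**
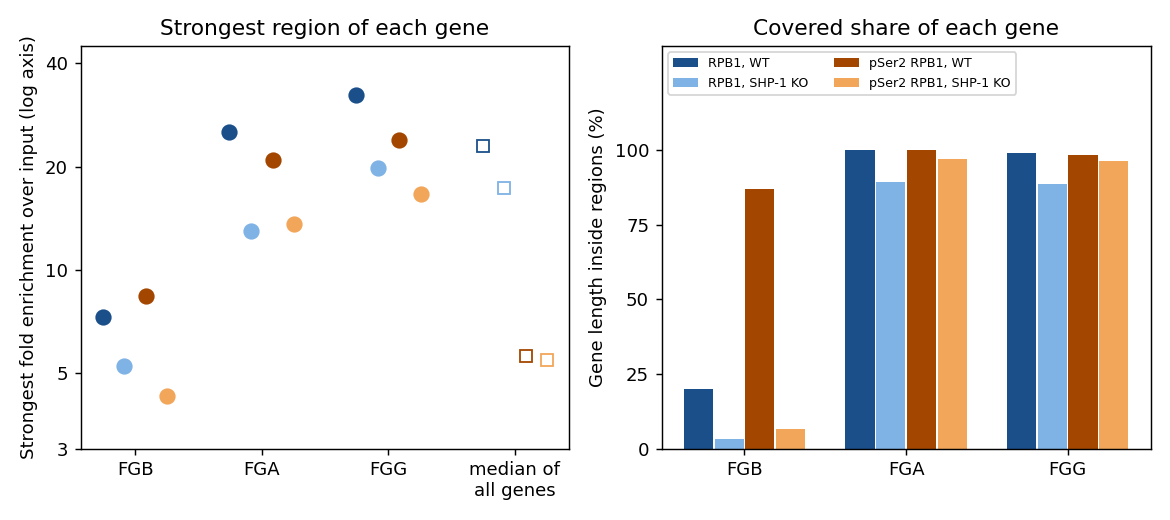
Left, strongest fold enrichment over input on a log axis for FGB, FGA and FGG, with open squares for the median of all genes. Right, percent of each gene inside regions. Each point or bar is 1 of the 4 libraries, so there are no error bars. FGG was the highest in fold enrichment in all 4 lists, and FGB alone had less than 20% of its length covered in 3 of them.

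At FGA, RPB1 in WT cells formed a region of 9716 bp, chr4:154581283-154590998, from the promoter to 1843 bp past the gene end. Its summit lay 78 bp after the start, in exon 1. The same stretch held 6 regions of 4.41-fold to 13-fold in KO cells, which together covered 89.3% of the gene, and the strongest of them again lay over exon 1, with its summit in the 5′ UTR. The pSer2 signal of FGA was placed differently. In WT cells 1 region, chr4:154581037-154590859, covered the gene, and its summit was 44 bp past the gene end. The long region in KO cells, chr4:154581524-154589746, stopped short of the start and peaked at 13.6-fold at −983 bp from the gene end, and a separate region of 3.76-fold lay over the start. The RPB1 summits of FGA were thus at the 5′ end in both cell types and the pSer2 summits near the 3′ end in both.

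At FGG, RPB1 in WT cells formed 2 long regions. One of 4792 bp, chr4:154608346-154613137, had its summit of 32.4-fold 5 bp before the start of the main transcript, and one of 6469 bp, chr4:154601801-154608269, reached 28.3-fold 852 bp past the gene end. The third FGG region, of 2.90-fold, lay farther downstream. In their place 9 regions covered 88.6% of the gene in KO cells, with folds from 4.61 to 19.8. The strongest was then the one at the 3′ end, with its summit 710 bp past the gene end, and the region over the promoter reached 13.1-fold. The promoter region thus stood above the 3′ region in WT cells and below it in KO cells. The pSer2 summits of FGG lay 571 bp past the gene end in WT cells and 541 bp past it in KO cells.

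At FGB, RPB1 in WT cells gave 5 short regions instead of a long one. The strongest, chr4:154562835-154563480, had its summit of 7.25-fold at −27 bp from the start, and the next, chr4:154571254-154572388, reached 7.10-fold in the 3′ UTR of exon 8. The 3 others, between 2.94-fold and 4.89-fold, lay upstream of the gene, over exon 2 and across the gene end. Only 2 regions were listed in KO cells, a promoter region of 4.66-fold and a region of 5.22-fold in the 3′ UTR, which covered 3.27% of the gene together. For pSer2, 9 regions of 2.38-fold to 8.38-fold covered 87.1% of FGB in WT cells, the strongest of them in the 3′ UTR. In KO cells 1 region of 659 bp was listed, chr4:154571793-154572451, at 4.27-fold and again in the 3′ UTR. Its −log10 q-value was 6.46, against 35.1 for the strongest FGB region of WT cells.

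Each gene was divided into 5 equal parts from 5′ to 3′. At FGB, RPB1 in WT cells covered 24.0% of part 1, 11.3% of part 2, 0% of parts 3 and 4, and 64.2% of part 5. pSer2 in WT cells covered between 78.7% and 96.3% of parts 1 to 4 and 100% of part 5, whereas pSer2 in KO cells covered 0% of parts 1 to 4 and 33.6% of part 5. Regions of FGB thus lay at both ends for RPB1 and reached the middle of the gene for pSer2 in WT cells. The lowest cover of FGA in any list was 62.9%, in part 2 with RPB1 in KO cells, and that of FGG was 79.8%, in the same part and list. With pSer2 the lowest cover was in part 1, at 85.0% for FGA and 81.6% for FGG in KO cells.

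**Figure D2:**
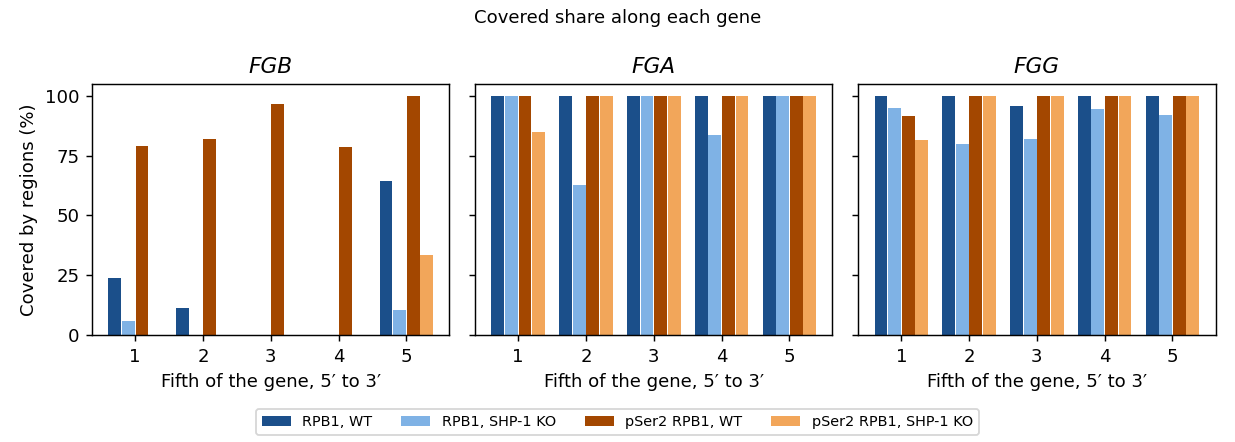
Percent covered by regions (y axis) of each of 5 equal parts of a gene, numbered 5′ to 3′ (x axis), in each of the 4 libraries, with 1 panel per gene. FGA and FGG were covered at 62.9% or more in every part and list. In parts 3 and 4 of FGB, pSer2 in WT cells had regions and the other 3 lists had 0%.

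Regions of FGA and FGG ran beyond the annotated gene ends. RPB1 regions continued 1843 bp past FGA and 2333 bp past FGG in WT cells, and 440 bp and 1953 bp in KO cells. pSer2 regions continued 2089 bp and 2948 bp in WT cells and 1602 bp and 2357 bp in KO cells. All 4 distances, for both genes and both antibodies, were shorter in KO cells, as were the medians over other genes. Among 8338 coding genes without another gene in the next 5 kb, those with a region over the end had a median of 842 bp past it in WT and 621 bp in KO cells for RPB1, and of 1050 bp and 986 bp for pSer2. The pSer2 distances of FGA and FGG were as long as or longer than 74.4% and 85.6% of those of 1164 genes in WT cells, and 65.9% and 80.5% of those of 1022 genes in KO cells. At FGB the pSer2 region of WT cells ended 711 bp past the gene, and no region crossed the end in KO cells.

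The strongest fold enrichment of each fibrinogen gene was lower in KO than in WT cells with both antibodies. For RPB1 the ratio of KO to WT was 0.515 for FGA, 0.610 for FGG and 0.720 for FGB. The median ratio over 12877 genes with a region in both cell types was 0.742, so values in KO cells were lower across the list as a whole. A ratio as low as or lower than that of FGA was found for 12.0% of genes, of FGG for 25.9% and of FGB for 46.1%. A fall of at least 1.5-fold was seen for 2 of 3 members, FGA and FGG, and for 36.1% of all genes.

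For pSer2 the ratios were 0.510 for FGB, 0.648 for FGA and 0.693 for FGG, and the median over 10870 genes was 0.936. As low a ratio or a lower one was found for 2.62% of genes in the case of FGB, 10.2% for FGA and 14.3% for FGG. A fall of at least 1.5-fold was seen for 2 of 3 members, FGB and FGA, and for 11.7% of all genes. By the strongest region, FGB was nearest to the median of all genes for RPB1 and farthest from it for pSer2. This contrast was absent when all regions of a gene entered by a mean weighted by their length. The ratios were then 0.793 for FGB, 0.453 for FGA and 0.351 for FGG with RPB1, and 0.741, 0.616 and 0.677 with pSer2. FGB thus had the highest of the 3 ratios with both antibodies and was no longer 1.5-fold lower for pSer2. This mean takes listed regions only, so stretches without a region in KO cells are left out and do not lower it. It also gives a long region its summit fold over its whole length. For pSer2 at FGB the KO value is that of 1 region of 659 bp. By that mean 2 of 3 members, FGA and FGG, were at least 1.5-fold lower for RPB1 and 1 of 3, FGA, for pSer2, against 32.2% and 6.61% of all genes. Divided by the median of all genes, the ratios were 0.970 for FGB, 0.695 for FGA and 0.822 for FGG with RPB1, and 0.545, 0.692 and 0.740 with pSer2. On that scale FGB with pSer2 was the only one of the 6 ratios past 1.5-fold.

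The ratio moved with the level in WT cells, which was looked at in bands of fold enrichment chosen after the data were seen. For pSer2, 35.5% of the 186 genes at 20-fold to 40-fold in WT cells fell by at least 1.5-fold. Within that band, 32.8% of genes had a ratio as low as that of FGA or lower, and 38.2% as low as that of FGG. FGB belonged to the band of 5-fold to 10-fold with 5707 genes, of which 2.30% were as low or lower. For RPB1, 14.4% of the 4693 genes in the band of FGA and FGG were as low as FGA and 30.6% as low as FGG, and 21.9% of the 1858 genes in the band of FGB were as low as FGB.

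**Figure D3:**
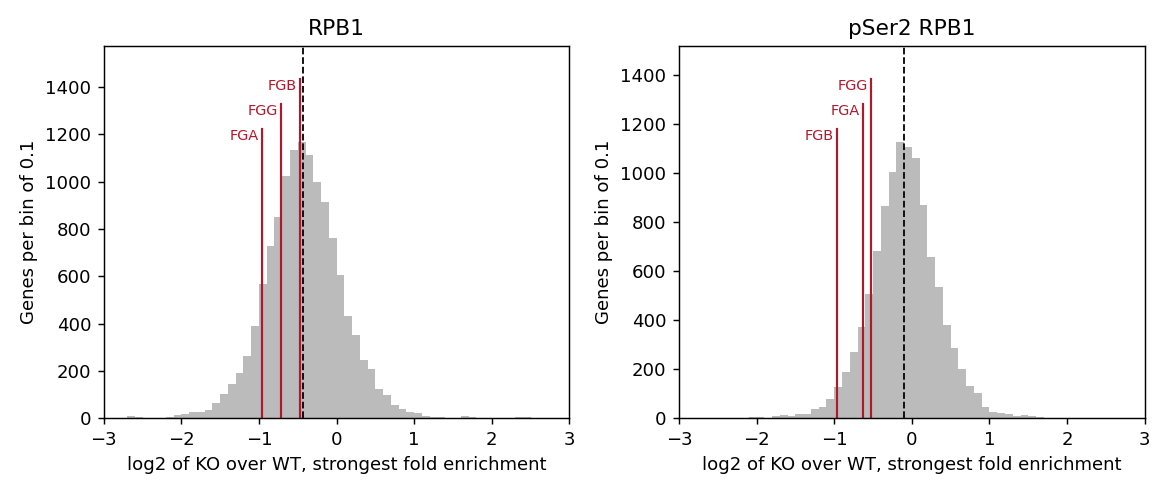
Histogram of the log2 ratio of KO to WT strongest fold enrichment over all genes with a region in both cell types, for RPB1 and pSer2, with the number of genes per bin of 0.1 on the y axis, the median of all genes as a dashed line and the 3 fibrinogen genes as red lines. All 3 members lay left of the median for both antibodies, from −0.96 for FGA to −0.47 for FGB with RPB1 and from −0.97 for FGB to −0.53 for FGG with pSer2.

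The covered length fell mainly at FGB. RPB1 regions covered 1950 bp of FGB in WT cells and 320 bp in KO cells, a ratio of 0.164, and pSer2 regions covered 8533 bp and 659 bp, a ratio of 0.0772. For FGA the ratios were 0.893 with RPB1 and 0.970 with pSer2, and for FGG 0.893 and 0.979. The medians over coding genes with a region in WT cells were 0.870 for RPB1 and 0.757 for pSer2. A fall of at least 1.5-fold in covered length was seen for 1 of 3 members, FGB, with each antibody, against 26.3% of genes for RPB1 and 41.9% for pSer2. For FGB, 5.50% of genes had a ratio as low or lower with RPB1 and 12.8% with pSer2.

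By position, 5 of the 10 member regions of RPB1 in WT cells overlapped no RPB1 region of KO cells, and for pSer2 this was true of 9 of 12. Over all regions of WT cells the shares were 38.1% for RPB1 and 47.8% for pSer2. Of those 9 pSer2 regions, 8 belonged to FGB. The number of RPB1 regions was higher in KO cells, 17 against 10, while their summed length was lower, 18.5 kb against 25.2 kb, and stretches listed as 1 region in WT cells were listed as several. The pSer2 regions summed to 31.0 kb in WT and 20.6 kb in KO cells. Whether sequencing depth contributed to any of these differences was not tested. The promoter region of FGG went from 32.4-fold to 13.1-fold, a ratio of 0.405, and its 3′ region from 28.3-fold to 19.8-fold, a ratio of 0.699. At FGB the promoter region gave a ratio of 0.643 and the 3′ region one of 0.735.

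The authors' classes put 20 of the 44 member regions at promoters and 7 in 3′ UTRs, and called 7 distal intergenic. Of those 7, 3 had their summit in the 3′ UTR of FGB in GENCODE 44. The full-length FGB transcript used for the annotation ends at position 154571086, 1721 bp before the gene end used here, so the class of these regions depends on the annotation release. The promoter class does not place a summit at the gene start. The long WT pSer2 regions of FGA and FGG, classed as promoter, had summits 44 bp and 571 bp past the gene end. A KO RPB1 region of FGG so classed had its summit 3614 bp after the start.

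Around the locus only 5 genes of chromosome 4 were looked at, and regions outside them were not counted. Of these 5, DCHS2, LRAT, RNF175 and TLR2 had no region in any list. PLRG1, which encodes a splicing factor and lies beside FGB, had 1 RPB1 region in each cell type, at 18.3-fold and 12.2-fold. Its strongest pSer2 region was 8.96-fold in WT cells and 5.54-fold in KO cells, and RPB1 covered 2.18% and 3.57% of the gene.

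The other genes of clotting were described in lists. Of 10 clotting factor genes, 7 had an RPB1 region in each cell type. Of these 7, 3 fell by at least 1.5-fold, against 36.1% of all genes, with a median ratio of 0.724 beside 0.742 for all genes. F2, which encodes prothrombin, the precursor of thrombin, had RPB1 regions of 34.8-fold in WT and 33.0-fold in KO cells over 96.5% and 94.8% of its length. F10, the gene of factor X, went from 42.0-fold to 20.4-fold. For pSer2, 6 of the 10 had a region in both cell types, 2 of these fell and 1 rose by at least 1.5-fold, and the median ratio was 0.924. Over all genes 11.7% fell that far, and the median ratio was 0.936. The gene that rose was F7, the gene of factor VII, from 5.84-fold to 12.1-fold.

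Of 8 genes of anticoagulant proteins and fibrinolysis, 6 had RPB1 regions in both cell types. Of these, 3 fell by at least 1.5-fold, against 36.1% of all genes, with a median ratio of 0.709. With pSer2, 4 had regions in both and 2 of them fell, against 11.7% of all genes, and the median ratio was 0.688. SERPINC1, the antithrombin gene, went from 10.9-fold to 6.07-fold for pSer2, while the covered share of the gene went up, from 30.9% to 43.1%. SERPINF2, the gene of the plasmin inhibitor α2-antiplasmin, went from 66.5-fold to 37.3-fold for RPB1. PLG, the gene of plasminogen, had an RPB1 region of 12.5-fold in WT cells, and no RPB1 region was assigned to it in KO cells. Of 3 genes of proteins that crosslink to or resemble fibrin, 2 had regions in all lists. FN1, the fibronectin gene, had pSer2 regions of 30.6-fold and 19.3-fold, and FGL1, a fibrinogen-like gene, of 17.5-fold and 24.0-fold.

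Among 12 other genes of proteins secreted by hepatocytes, 9 had RPB1 regions assigned to them in both cell types. Of these 9, 3 fell by at least 1.5-fold, against 36.1% of all genes, and the median ratio was 0.776. By position the count of genes with RPB1 regions in both was higher, since RPB1 regions assigned to other genes covered 100% of APOA1 and of APOA2 in KO cells. For pSer2, 11 had regions in both, 4 fell and 1 rose by at least 1.5-fold, and the median ratio was 0.846. Over all genes 11.7% fell that far. The 4 that fell were TTR at 0.590, AMBP at 0.632, APOA2 at 0.638 and SERPINA1 at 0.660, and the lowest of the others was APOB at 0.807. The fibrinogen ratios were 0.510 to 0.693. AHSG, the fetuin-A gene, had pSer2 regions of 34.2-fold in WT and 29.4-fold in KO cells. ALB, the albumin gene, had 15.1-fold and 18.6-fold, and APOB, the apolipoprotein B gene, 26.0-fold and 20.9-fold. AMBP, the α-1-microglobulin and bikunin precursor gene, had 39.6-fold and 25.1-fold. The gene that rose was APOA1, from 3.91-fold to 9.46-fold. The RPB1 and pSer2 regions over APOA1 in WT cells covered 100% of the gene, and its value depends on which neighbouring gene a region was assigned to.

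The geometric mean of the 3 strongest folds was 18.1 in WT and 11 in KO cells for RPB1, and 16.1 and 9.87 for pSer2. To this pattern the 5 most similar of 9234 genes were SMAD3, PTOV1-AS2, CHD2, TAS1R3 and FAM228B. Likeness was the Euclidean distance of log2 values over the 4 lists, and these 5 lay at 0.19 to 0.32. FGA lay at 0.80 from that mean, FGG at 1.52 and FGB at 2.29, so the members were farther from their own mean than these genes were.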

How the data were processed

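ChIP-seq regions of RPB1 and pSer2 RPB1 in WT and KO HepG2 cells were used, from 1 library for each antibody in each cell type. Input DNA, 2 libraries, was not analysed here. The authors trimmed reads with Trimmomatic and aligned them to hg38 with BWA. They called narrow MACS2 peaks with matched input as background and annotated each region with the nearest transcript. Tool versions are not given in the sources used here. The authors' 4 lists hold a fold enrichment per region, which is a ratio to input. The deposited p-values and q-values are on a −log10 scale, and the smallest −log10 q-value was 1.31. The authors' lists also hold the MACS2 display score, which was not used, and the summit offset. A further deposited table holds only a comparison of RPB1 between KO and WT cells by the authors, with numbers of windows up and down and p-values, and was not used.

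Regions were taken as listed and assigned by the authors' symbol. A gene's strongest region was that of highest fold enrichment, and covered length was counted by position over GENCODE 44 gene spans. Ratios used genes with a region in both cell types, or for covered length coding genes with a region in WT cells, and the 1.5-fold limit is a convention. With 1 library per condition no test was made. The members and gene lists were chosen with earlier results of these data known. The genes named are the 3 members, 2 to 4 genes of each list, and the 5 genes nearest to the mean of the members. Alternatives were a stricter q-value, assignment by position, promoter regions only, length-weighted means, other rankings, distinct intervals, a 3 kb flank and, added after the data were seen, bands of fold enrichment and length-weighted means over all genes. Values of some single genes are not reported here. The functions were tested on simulated data. Python 3.11.15, pandas 2.3.3, NumPy 2.4.6 and Matplotlib 3.10.9 were used.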

Additional observations from a re-analysis of the deposited data

How the results depend on the processing

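Of 167 values recomputed under an alternative, 32 moved by more than 1.5 times. A change of direction could be called only for ratios of KO to WT that had fallen by at least 1.5-fold, and 0 of these changed direction. Assignment by position left 52 of 52 values within that limit. The RPB1 ratio of KO to WT for FGG, 0.610, was 0.405 with promoter regions only and 0.351 as a length-weighted mean, and the cause was not tested. The length-weighted mean took the pSer2 ratio of FGB from 0.510 to 0.741, no longer a 1.5-fold fall, but it leaves out stretches without a region in KO cells. Promoter regions only took the RPB1 ratio of FGB from 0.720 to 0.643, which is such a fall. Division by the median of all genes ended the 1.5-fold fall of FGA and FGG with RPB1 and of FGA with pSer2, at 0.695, 0.822 and 0.692. The share of genes that fell by at least 1.5-fold, 36.1% for RPB1, was 15.2% among genes at 5-fold to 10-fold in WT cells, and 11.7% for pSer2 became 35.5% at 20-fold to 40-fold and 6.61% with the length-weighted mean, and these 3 alternatives were chosen after the data were seen. The remaining moves were 12 of 12 ranks when genes in place of regions were ranked, 13 of 52 values when regions with a −log10 q-value under 5 were left out, 1 of 12 covered lengths with a 3 kb flank and 1 of 12 ranks by q-value. A promoter-only ratio could not be given for pSer2 at FGB, which had no promoter region in KO cells. No paired analysis was possible because each antibody and cell type has 1 library, and for the same reason no library could be left out. The depth of the libraries is unknown.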

Other observations

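Genes that regulate the fibrinogen genes, a list of 9, had RPB1 regions in both cell types in 9 cases. The median ratio of KO to WT was 0.737, and 4 of the 9 fell by at least 1.5-fold, against 36.1% of all genes. For pSer2, 7 had regions in both cell types, and 5 of them fell by at least 1.5-fold, against 11.7% of all genes. The median ratio for pSer2 was 0.572, beside 0.936 for all genes. CEBPB, a C/EBP factor of the acute-phase response, went from 10.4-fold to 3.58-fold for pSer2. HNF4A, a liver nuclear receptor, went from 8.19-fold to 4.68-fold. STAT3, which acts downstream of interleukin 6, went from 5.31-fold to 2.75-fold. The pSer2 regions assigned to CEBPB went from 6 to 2, while the covered share of the gene went up, from 69.2% to 92.6%. The covered share went down for HNF4A, from 69.8% to 51.6%, and for STAT3, from 0.274% to 0%. How far the value of CEBPB depends on which neighbouring gene a region was assigned to was not tested.

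Between the genes, RPB1 regions covered 32.1% of the gap between FGA and FGG in WT cells and 18.2% in KO cells. In WT cells this included a region of 7.75-fold, chr4:154598199-154599622, with its summit at −8289 bp from the FGA start. It overlapped no RPB1 region of KO cells. Between FGB and FGA, pSer2 regions covered 29.2% of the gap in WT cells and 15.5% in KO cells.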
